A study of Mus musculus with 12 samples.

Results

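The 9 genes described here mark neutrophils, and their RNA was followed in the livers of mice given saline or 1 of 3 insulin derivatives. Chosen with earlier results of these data known, they were a list of symbols: S100a8, S100a9, Cxcr2, Csf3r, Retnlg, Mmp8, Mmp9, Trem1 and Itgam. Each had exactly 1 probe set (a group of array probes read as 1 value) whose annotation gave only that symbol, out of 19937 genes with such a probe set among the 28213 probe sets of the array. All 9 passed the filter on dim probe sets, and each lay over the filter value of 5 on all 12 arrays.

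The study asked what insulin does in the liver when it is fused to a lipoprotein protein that carries it there. C57BL/6 mice, 6 weeks old in the sample labels, received saline, Albulin (insulin fused to albumin), Insulin-Apo (the same idea with apolipoprotein A-I as carrier) or insulin glargine, a commercial long-acting insulin. Every derivative was given s.c. at 55 nmol/kg, livers were taken 6 h later, and 3 Affymetrix Mouse Gene 1.0 ST arrays were run per group. Per the study's methods the mice were female and somewhat older than the labels state, and both fusion proteins were made in E. coli and purified. How the commercial glargine was made is not described there, so the derivatives cannot be compared in how they were produced. No array came from mice given albumin or apolipoprotein A-I without insulin. Values are log2 expression, so a difference of 1 is a doubling, and no level is compared between genes because probe sets differ in brightness. The sources do not say that each array is a different mouse, so the spread behind each p-value may be technical rather than between animals.

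Neutrophils are short-lived granulocytes that leave the bone marrow under the cytokine G-CSF and enter tissue along chemokine gradients. In the liver they lodge in the sinusoids, hold on through integrins and release granule proteins and proteases. The 9 genes cover these steps: the alarmin subunits S100a8 and S100a9, the receptors Cxcr2, Csf3r and Trem1, the secreted products Retnlg, Mmp8 and Mmp9, and the integrin subunit Itgam. None of them is restricted to neutrophils, since monocytes and macrophages also make several. In whole liver RNA, fewer cells of a type and less RNA per cell cannot be told apart.

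The tissue was liver by its markers. Alb, the serum albumin gene, had group means between 14.81 and 14.84 and the 6 hepatocyte genes averaged 14.43 to 14.52 on every array, with none called different in any comparison. Ly6g, a surface marker largely limited to mouse neutrophils, was dim, at 6.24 ± 0.15 (SD, n = 3) in saline, 6.73 ± 0.22 in Albulin, 6.56 ± 0.09 in Insulin-Apo and 6.01 ± 0.27 in glargine livers. The 12 arrays had medians of 7.70 to 7.77, and each array correlated with others of its group at a mean r of 0.995 to 0.997 in the saline, Albulin and Insulin-Apo groups and 0.990 to 0.993 in the glargine group. The methods describe the array work for saline, Insulin-Apo and Albulin only, so whether the glargine arrays were processed with the others was not stated, and treatment and processing cannot be told apart in any glargine comparison.

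At 6 h after Albulin, 4 of the 9 neutrophil genes had risen (S100a8, S100a9, Cxcr2 and Mmp8) and none had fallen. A gene was called changed where limma's log-odds of a difference, B, exceeded 0, and by this rule 1.37% of all probe sets were called higher and 1.04% lower after Albulin. After Insulin-Apo none of the 9 was called by limma, against 1.34% of probe sets called higher and 0.804% lower. At an unadjusted p under 0.05, 7 of the 9 genes stood higher in the Insulin-Apo livers (all but Mmp9 and Trem1), where 9.13% of all probe sets were higher by that looser rule. After glargine 1 of 9, Trem1, had risen and none had fallen, where 2.24% of probe sets were called higher and 2.6% lower.

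The median log2 difference of the 9 genes from saline was 0.64 after Albulin, 0.49 after Insulin-Apo and -0.10 after glargine, while the medians over all probe sets tested were 0.0026, -0.017 and -0.00033. All 3 Albulin arrays lay above all 3 saline arrays for 7 genes, a pattern found in 11.6% of all probe sets. For Insulin-Apo this held for 6 genes, with 10.4% of all probe sets. These 3 comparisons share the saline arrays and are not independent of each other. Because the 9 genes were chosen with earlier results of these data known, the shares of all probe sets, here and below, describe the background only. They are not a test of the set.

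**Figure D1:**
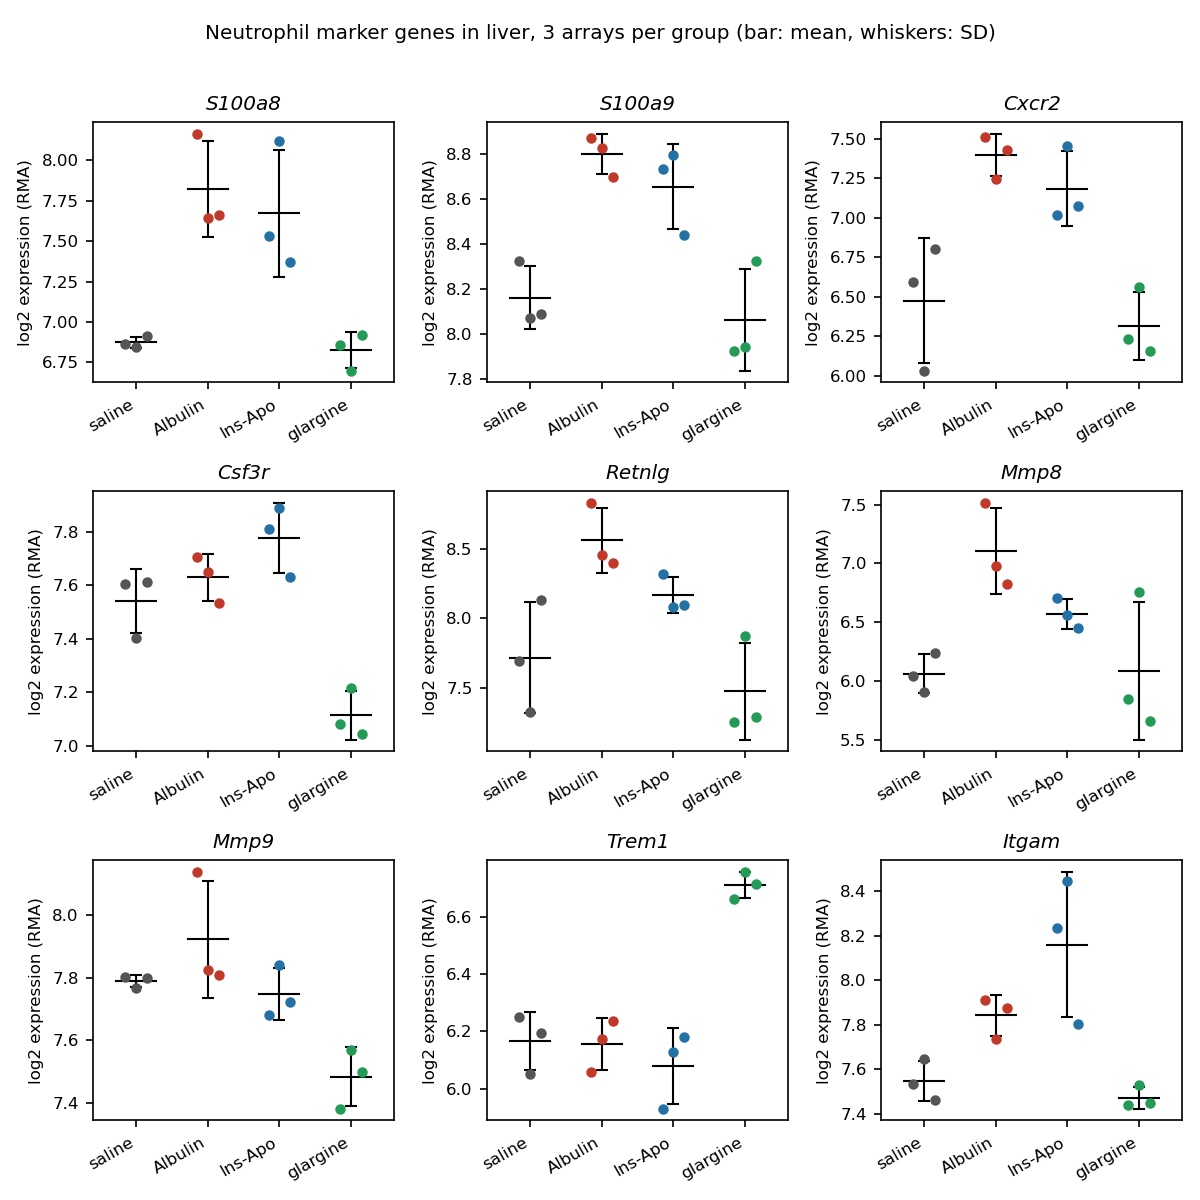
Log2 expression (vertical axis) of the 9 neutrophil genes on each of the 12 liver arrays, 1 panel per gene with its own scale; points are arrays and bars are the mean of 3 with the SD. S100a8 lay between 6.85 and 6.91 in saline and between 7.37 and 8.16 in both fusion protein groups, and Trem1 alone was highest in the glargine arrays, at 6.66 to 6.75.

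S100a8 and S100a9 encode the subunits of calprotectin, a calcium- and metal-binding protein abundant in the neutrophil cytosol. S100a8 (probe set 10493831) read 6.86, 6.85 and 6.91 in the saline arrays, 8.16, 7.64 and 7.66 after Albulin, 7.53, 8.12 and 7.37 after Insulin-Apo and 6.86, 6.70 and 6.92 after glargine. Every array of both fusion proteins was above every saline and glargine array. S100a8 was 1.93-fold higher after Albulin than after saline (log2 difference 0.95, SE 0.18, limma adjusted p = 0.0152). This call was lost without any 1 of the saline arrays or without Albulin replicate 1, where the difference ranged from 0.78 to 0.97 and the adjusted p reached 0.06. After Insulin-Apo the difference was 0.80 (limma adjusted p = 0.0365) and B did not exceed 0. After glargine it was -0.05.

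S100a9 (probe set 10499861) read 8.32, 8.07 and 8.09 in saline arrays, 8.87, 8.83 and 8.70 after Albulin, 8.73, 8.79 and 8.44 after Insulin-Apo and 7.92, 7.94 and 8.32 after glargine. The groups fell apart in the same way, with both fusion protein groups wholly above the saline and glargine groups. The Albulin difference was 0.64 (SE 0.10, limma adjusted p = 0.00723), and S100a9 was the one gene of the 9 called in all 22 alternative analyses of that comparison. The Insulin-Apo difference of 0.49 (limma adjusted p = 0.0268) was called in 6 of 22, and the glargine difference was -0.10.

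Cxcr2 is the receptor through which neutrophils read CXC chemokines such as Cxcl1 and Cxcl2. It read (probe set 10347291) 6.59, 6.03 and 6.80 in saline arrays, 7.51, 7.25 and 7.43 after Albulin, 7.02, 7.45 and 7.08 after Insulin-Apo and 6.23, 6.56 and 6.15 after glargine. The saline arrays were the most scattered group (SD 0.40), and no fusion protein array overlapped them. Cxcr2 was 1.89-fold higher after Albulin (log2 difference 0.92, SE 0.18, limma adjusted p = 0.0158). Without saline replicate 1 or any 1 of the Albulin arrays the call was lost, with differences of 0.86 to 0.99 and adjusted p up to 0.0688. The Insulin-Apo difference of 0.71 was not called (limma adjusted p = 0.0536), nor was the glargine difference of -0.16.

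Csf3r is the receptor for G-CSF, the cytokine that drives neutrophil production and release. It read (probe set 10508074) 7.60, 7.40 and 7.61 in saline arrays, 7.71, 7.65 and 7.53 after Albulin, 7.81, 7.89 and 7.63 after Insulin-Apo and 7.08, 7.22 and 7.04 after glargine. The glargine arrays lay below all 9 others. The differences from saline were 0.09 after Albulin and 0.24 after Insulin-Apo, neither called. The glargine difference of -0.43 (SE 0.09, limma adjusted p = 0.00895) was just short of the call and was called in 8 of 24 alternatives.

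Trem1, a receptor on neutrophils and monocytes that amplifies inflammatory signalling, did not follow the other 8 genes. It read (probe set 10445746) 6.25, 6.05 and 6.19 in saline arrays, 6.06, 6.17 and 6.23 after Albulin, 5.93, 6.13 and 6.18 after Insulin-Apo and 6.66, 6.75 and 6.71 after glargine. The saline and fusion protein arrays overlapped, and all 3 glargine arrays stood above the other 9. Trem1 was 1.46-fold higher after glargine than after saline (log2 difference 0.54, SE 0.08, limma adjusted p = 0.00137). The rise was called in 23 of 24 alternatives, the exception being a rule that also asked for a log2 difference of at least 0.58. The 2100 probe sets of like brightness (within 0.25 of its mean over 12 arrays) had a median difference of 0.0058.

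Mmp8, the neutrophil collagenase stored in specific granules, showed the largest log2 difference of the 9 after Albulin. It read (probe set 10583100) 6.04, 5.91 and 6.24 in saline arrays, 7.52, 6.98 and 6.82 after Albulin, 6.70, 6.56 and 6.45 after Insulin-Apo and 5.84, 6.75 and 5.66 after glargine. The Albulin arrays did not overlap with any other group, and glargine replicate 2 stood well above the other arrays of its group. Mmp8 was 2.06-fold higher after Albulin than after saline (log2 difference 1.04, SE 0.16, limma adjusted p = 0.00465), and this call was lost only when all 12 arrays entered the fit (limma adjusted p = 0.0429). The Insulin-Apo difference was 0.51 (limma adjusted p = 0.106).

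Retnlg, a resistin-like secreted protein made by granulocytes, read (probe set 10436100) 7.69, 7.33 and 8.13 in saline arrays, 8.83, 8.45 and 8.39 after Albulin, 8.32, 8.08 and 8.10 after Insulin-Apo and 7.26, 7.87 and 7.29 after glargine. Saline replicate 3 reached into the Insulin-Apo range, and the Albulin arrays were above all others. The Albulin difference of 0.84 (SE 0.18, limma adjusted p = 0.0235) was not called, except without saline replicate 3 (1.05) and in 4 other alternatives. Mmp9, the gelatinase of tertiary granules (probe set 10478633), read 7.80, 7.77 and 7.80 in saline arrays, 8.14, 7.82 and 7.81 after Albulin, 7.68, 7.84 and 7.72 after Insulin-Apo and 7.38, 7.57 and 7.50 after glargine. Albulin arrays 2 and 3 lay only just above the saline arrays, the Insulin-Apo arrays overlapped them, and the glargine arrays lay below all others. No Mmp9 difference from saline was called, the values being 0.13, -0.04 and -0.31.

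Itgam, the alpha subunit of the integrin Mac-1 on neutrophils, monocytes and macrophages, read (probe set 10557862) 7.53, 7.64 and 7.46 in saline arrays, 7.91, 7.74 and 7.88 after Albulin, 8.23, 8.44 and 7.80 after Insulin-Apo and 7.44, 7.53 and 7.45 after glargine. Both fusion protein groups lay above the saline and glargine arrays. With Csf3r, Itgam was one of the genes whose mean was higher after Insulin-Apo (8.16) than after Albulin (7.84), although arrays of these groups overlapped. The Insulin-Apo difference from saline was 0.61 (SE 0.13, limma adjusted p = 0.0316) and was not called, being called in 4 of 22 alternatives. The Albulin difference of 0.30 was not called.

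**Figure D2:**
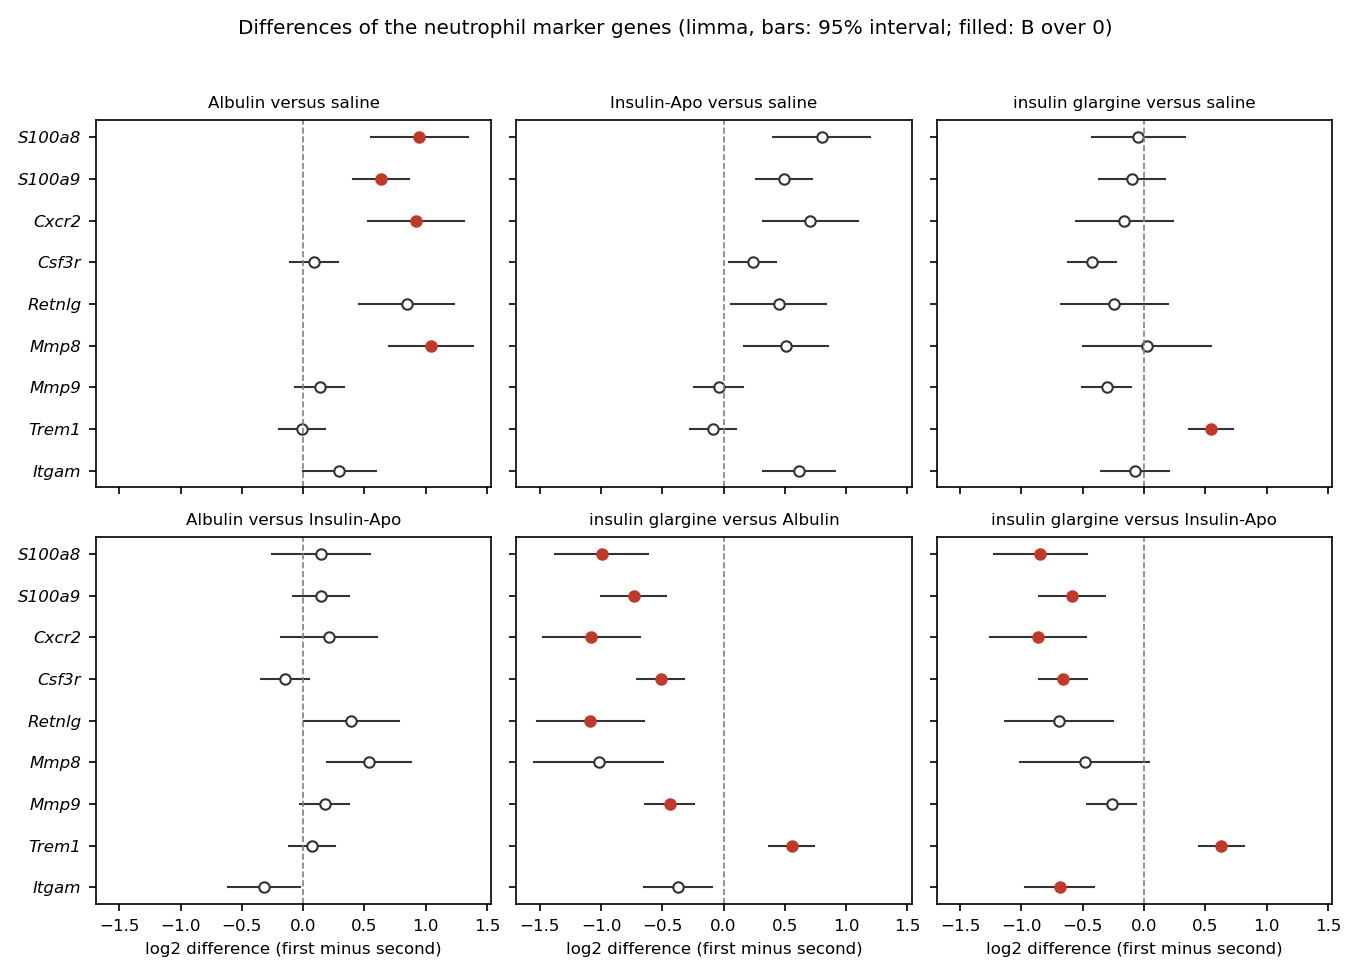
Log2 differences of the 9 neutrophil genes (horizontal axis, with 95% confidence intervals) in the 6 comparisons of the treatments, 1 panel each, filled where limma's B exceeded 0. Mmp8 (1.04), S100a8 (0.95), Cxcr2 (0.92) and S100a9 (0.64) were called higher in Albulin than in saline livers, and Trem1 was the only gene called against saline after glargine.

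The promoters of the 4 genes that rose after Albulin are given as RefSeq lists them for build GRCm38.p6, 250 bases before each start, because these genes were called together in that comparison. They were searched for motifs of C/EBP and PU.1, factors of granulocyte development, and of STAT factors. Each is written 5′ to 3′ on the gene's strand, and capitals mark matches on either strand. S100a8 lies at chr3:90668821-90669070 on the plus strand and S100a9 at chr3:90695722-90695971 on the minus strand, with 0 protein-coding genes between these neighbours. Cxcr2 lies at chr1:74153744-74153993 and Mmp8 at chr9:7558179-7558428, both on the plus strand.
S100a8: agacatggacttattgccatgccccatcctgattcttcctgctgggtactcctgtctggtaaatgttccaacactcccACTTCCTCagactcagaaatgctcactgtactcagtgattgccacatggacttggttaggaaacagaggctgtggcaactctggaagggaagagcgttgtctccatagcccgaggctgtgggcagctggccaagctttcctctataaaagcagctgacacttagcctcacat
S100a9: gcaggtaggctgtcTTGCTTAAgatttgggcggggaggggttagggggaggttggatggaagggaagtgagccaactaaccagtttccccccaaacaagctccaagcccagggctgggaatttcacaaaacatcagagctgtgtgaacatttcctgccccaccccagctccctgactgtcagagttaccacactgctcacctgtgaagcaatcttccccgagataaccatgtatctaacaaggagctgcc
Cxcr2: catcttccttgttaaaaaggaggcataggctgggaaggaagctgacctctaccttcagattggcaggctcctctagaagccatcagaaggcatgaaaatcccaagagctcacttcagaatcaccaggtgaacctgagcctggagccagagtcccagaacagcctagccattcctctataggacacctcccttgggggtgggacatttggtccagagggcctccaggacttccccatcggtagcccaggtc
Mmp8: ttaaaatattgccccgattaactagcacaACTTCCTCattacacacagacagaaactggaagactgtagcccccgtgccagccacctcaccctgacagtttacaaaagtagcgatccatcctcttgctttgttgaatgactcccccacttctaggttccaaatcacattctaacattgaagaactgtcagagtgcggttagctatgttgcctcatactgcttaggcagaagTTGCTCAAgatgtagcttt
The motifs searched were TTGCNNAA for C/EBP, GAGGAAGT for PU.1 and TTCNNNGAA for STAT factors. S100a8 held 1 PU.1 match (ACTTCCTC, the motif on the opposite strand), S100a9 held 1 C/EBP match (TTGCTTAA), Mmp8 held 1 of each, and Cxcr2 held none of them. Of 32851 mouse promoters of that length, 9.56% held the C/EBP letters, 2.44% the PU.1 letters and 7.02% the STAT letters. A match describes letters only, and binding was not measured.

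The 3 insulin derivatives were compared with each other at the same dose and time, in 3 pairs, with p-values adjusted over all probe sets within each pair. Between Albulin and Insulin-Apo, which differ in the carrier protein fused to insulin, none of the 9 genes was called by limma, and 0.25% of all probe sets were called higher and 0.389% lower. At an unadjusted p under 0.05, Retnlg (0.39) and Mmp8 (0.53) were higher and Itgam (-0.32) lower after Albulin, where 6.44% and 7.11% of all probe sets were higher and lower by that rule. The 95% intervals of the difference were -0.25 to 0.55 for S100a8, -0.08 to 0.37 for S100a9, -0.18 to 0.60 for Cxcr2 and 0.19 to 0.88 for Mmp8 (limma adjusted p = 0.187). For S100a8, S100a9 and Cxcr2, differences of up to these sizes between the fusion proteins were therefore left unsettled by 3 arrays a group. The Mmp8 interval, which is not adjusted for the number of probe sets, lay above 0. All 3 Albulin arrays also lay above all 3 Insulin-Apo arrays for Mmp8, but its B did not exceed 0.

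Between glargine, which has no carrier protein, and Albulin, 6 of the 9 genes were lower after glargine and 1 was higher, where 2.35% of all probe sets were called lower and 2.01% higher. The log2 differences were -1.09 for Retnlg (SE 0.20, limma adjusted p = 0.00479), -1.08 for Cxcr2 (SE 0.18, adjusted p = 0.00259) and -0.996 for S100a8 (SE 0.17, adjusted p = 0.00336). Those of S100a9, Csf3r and Mmp9 were smaller, at -0.73, -0.51 and -0.44, and Trem1 was higher by 0.56 (SE 0.08, adjusted p = 0.00128). All 3 glargine arrays lay below all 3 Albulin arrays for 8 genes, a pattern in 12.3% of all probe sets, and Trem1 was the exception. Mmp8, at -1.02, was not called (limma adjusted p = 0.0194) and was called at -1.35 without glargine replicate 2. Calls of S100a9 and Cxcr2 were made in all 24 alternatives and that of Mmp9 in 8 of 24. Leaving out Albulin replicate 1 left 3 genes called, and leaving out Albulin replicate 2 or glargine replicate 1 left 4.

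Between glargine and Insulin-Apo, 5 genes were lower after glargine and 1 was higher, with 2.88% of all probe sets called lower and 1.96% higher. Csf3r was lower after glargine (log2 difference -0.66, SE 0.09, limma adjusted p = 0.000633) and Trem1 higher by 0.63 (SE 0.08, adjusted p = 0.000553), both called in all 24 alternatives. Itgam (-0.69), S100a8 (-0.85), S100a9 (-0.59) and Cxcr2 (-0.87) were also called lower, in 19, 11, 12 and 11 of the 24. Leaving out Insulin-Apo replicate 1 or 2 or glargine replicate 1 left 2 genes called, and leaving out glargine replicate 3 or Albulin replicate 2 or 3 left 3. The differences of Retnlg (-0.69), Mmp8 (-0.48) and Mmp9 (-0.26) were not called. These comparisons share arrays with those against saline.

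The 9 genes varied together across the 12 arrays, apart from Trem1. Of the 36 pairs, 28 had a Pearson r over 0 and the median r was 0.71. The highest was 0.93, between Retnlg and Mmp8, and S100a8 and S100a9 correlated at 0.92. All 8 negative pairs held Trem1, the lowest being -0.87 with Csf3r. After subtracting each group's mean the median r was 0.39. These values are a description over 12 arrays that share the treatments. Albulin replicate 1 was the highest array of its group for 8 of the 9 genes and of all 12 arrays for 6, and saline replicate 2 was the lowest of its group for 8.

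The genes whose profile was most like the mean of the 9 (each centred on its own mean), among 18908 others, were Skap2 (Pearson r 0.96 over 12 arrays), Rnf24 (0.96), Tifa (0.96), Ints7 (0.96) and Snx10 (0.95). Skap2, an adaptor protein of leukocyte integrin signalling, averaged 8.79 ± 0.12 (SD, n = 3) in saline, 9.28 ± 0.08 in Albulin, 9.18 ± 0.10 in Insulin-Apo and 8.55 ± 0.08 in glargine livers. They were chosen by likeness in these arrays, and the values carry no test.

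Ligands and partners of the 9 proteins formed a list of 16 genes. Of these, 2 rose after Albulin, 1 after Insulin-Apo and 1 after glargine, with none lower against saline. The shares of all probe sets called higher were 1.37%, 1.34% and 2.24%. Cxcl1, a chemokine ligand of Cxcr2, read 8.43, 8.56 and 8.31 in saline arrays, 11.35, 11.24 and 10.33 after Albulin, 9.28, 10.30 and 9.56 after Insulin-Apo and 8.57, 8.57 and 8.61 after glargine. Albulin arrays were above all others, Insulin-Apo arrays lay between, and glargine arrays lay just above the highest saline array. Cxcl1 was 5.81-fold higher after Albulin than after saline (log2 difference 2.54, SE 0.28, limma adjusted p = 0.00103). The Insulin-Apo difference of 1.28 was not called (limma adjusted p = 0.0304), and the difference of glargine from Albulin was -2.39 (adjusted p = 0.000139).

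Cxcl2, another Cxcr2 ligand, read 6.27, 6.27 and 6.39 in saline arrays, 6.21, 6.35 and 6.40 after Albulin, 6.49, 7.46 and 6.41 after Insulin-Apo and 6.96, 7.76 and 6.74 after glargine. The Albulin arrays overlapped the saline arrays, and the Insulin-Apo and glargine arrays lay above them. None of these differences from saline was called (0.01, 0.48 and 0.84, with limma adjusted p = 0.992, 0.287 and 0.065). Csf3, which encodes G-CSF, the ligand of Csf3r, differed from saline by -0.02, -0.05 and -0.02 after Albulin, Insulin-Apo and glargine. Icam1, the endothelial ligand of the Itgam integrin, rose after Albulin (0.51, SE 0.09, limma adjusted p = 0.00997) and after Insulin-Apo (0.45, SE 0.09, adjusted p = 0.0228). Timp3, an inhibitor of metalloproteinases, rose after glargine (0.69, SE 0.12, limma adjusted p = 0.00285). After Albulin it read 10.15 to 10.44 against 9.72 to 9.97 in saline, without overlap but not called.

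**Figure D3:**
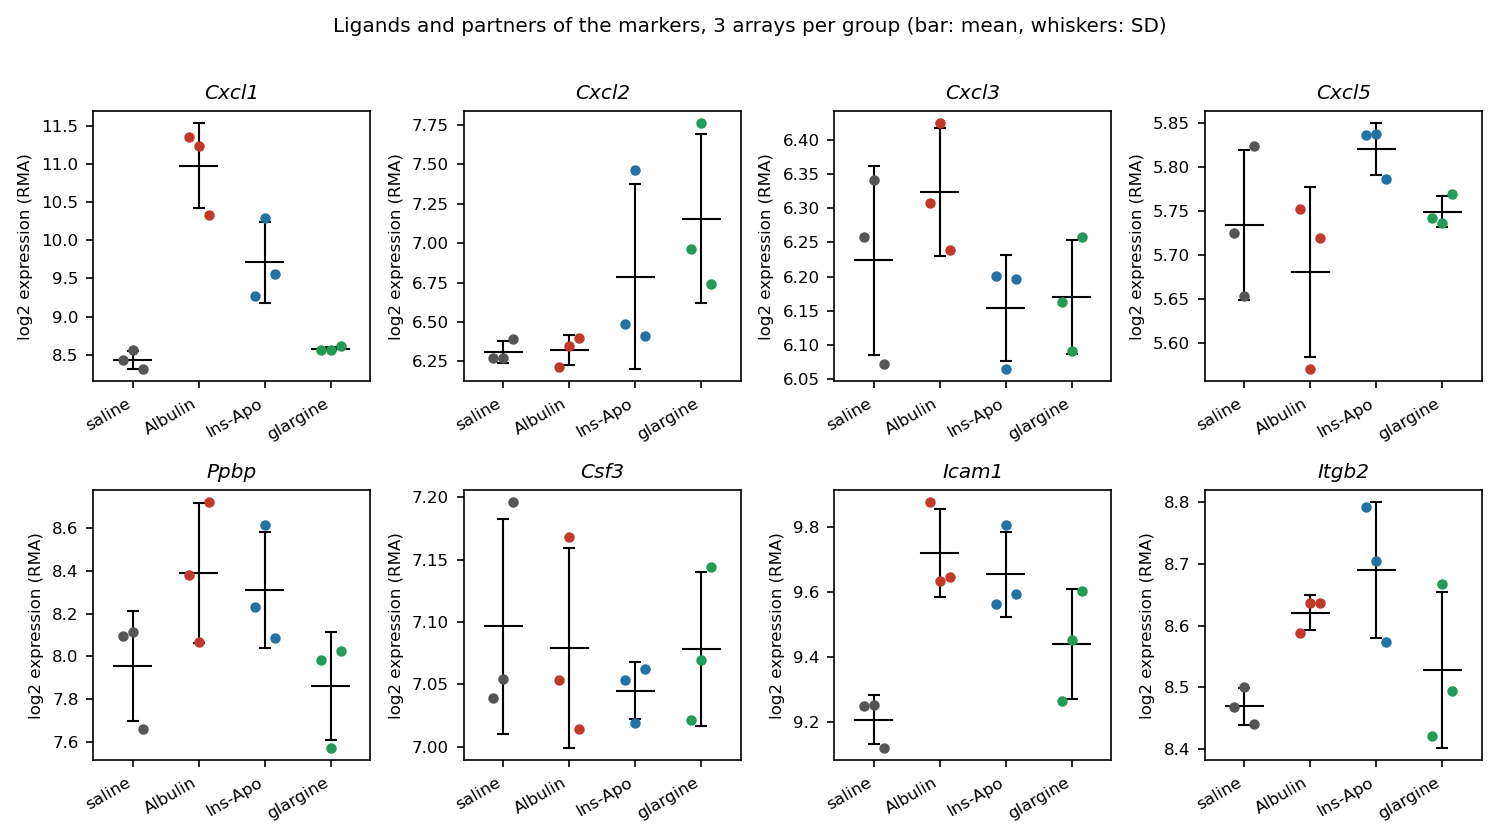
Log2 expression (vertical axis, a scale for each panel) of ligands, partners and related genes of the neutrophil markers on each of the 12 arrays, with the mean of 3 and its SD. Cxcl1 lay at 10.33 to 11.35 in Albulin arrays and at 8.31 to 8.61 in saline and glargine arrays.

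Other neutrophil genes were read in the same arrays. Of 14 granule protein genes, 3 rose after Albulin and 3 after Insulin-Apo, with none lower, and none was called after glargine. By the same rule 1.37%, 1.34% and 2.24% of all probe sets were called higher. Lcn2, an iron-siderophore-binding protein of specific granules that hepatocytes also secrete, rose by 1.38 after Albulin (SE 0.17, limma adjusted p = 0.00174) and by 1.40 after Insulin-Apo (SE 0.17, adjusted p = 0.00231). Chil3, a chitinase-like protein of neutrophils and macrophages, rose by 0.84 and 0.81, Hp (haptoglobin, also a liver secretory protein) by 0.32 after Albulin, and Lyz2 (lysozyme, also made by macrophages) by 0.63 after Insulin-Apo. Hp also averaged 14.45 after Insulin-Apo against 14.13 in saline, and Lyz2 11.52 after Albulin against 11.20 in saline. In both cases no array overlapped saline, and neither difference was called. Mpo, Elane, Prtn3 and Ctsg, proteins of primary granules made early in neutrophil development, were called in no comparison. Lack of a call was not limited to these, as Ltf, Camp, Ngp and Padi4 of the same list were not called against saline. Their means were 6.41, 7.41, 5.95 and 6.26 in saline livers. They were 6.35, 7.41, 6.09 and 6.25 after Albulin and 6.30, 7.39, 6.01 and 6.28 after Insulin-Apo.

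Of 5 phagocyte oxidase genes none was called after Albulin or glargine. Cybb, the oxidase's membrane catalytic subunit, rose by 0.63 after Insulin-Apo (SE 0.12, limma adjusted p = 0.019). The median difference of the 5 from saline was 0.20 after Albulin, 0.31 after Insulin-Apo and -0.23 after glargine. All arrays of each fusion protein lay above all saline arrays for 4 of the 5. This pattern was found in 11.6% (Albulin) and 10.4% (Insulin-Apo) of all probe sets. Between glargine and Insulin-Apo, 4 of the 5 were called lower after glargine, led by Cybb (-1.06), as were 2.88% of all probe sets. Against Albulin none was called, but all glargine arrays lay below all Albulin arrays for all 5, a pattern in 12.3% of all probe sets. Of 16 other neutrophil surface genes none was called after either fusion protein, where 1.37% (Albulin) and 1.34% (Insulin-Apo) of all probe sets were called higher. Still, 13 and 11 of the 16 differed from saline by more than 0. For 8 of them in each group, all arrays lay above all saline arrays. After glargine Il1r2 (0.43), a decoy receptor for interleukin-1, and Clec4d (0.42), a C-type lectin receptor, rose against saline, where 2.24% of all probe sets were called higher. Unlike Trem1, these were not highest after glargine alone: Il1r2 read 6.64 to 6.95 after Albulin against 6.33 to 6.48 in saline. Clec4d read 6.76 to 6.82 after Albulin and 6.84 to 7.18 after Insulin-Apo, against 6.59 to 6.65 in saline. Ly6g was lower after glargine than after Albulin (difference -0.72, SE 0.14, limma adjusted p = 0.00616), and its Albulin difference from saline, 0.49, was not called (adjusted p = 0.0319).

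Markers of other cells that make some of the same proteins moved with part of these results. The mean log2 level of 7 monocyte genes was 7.29 to 7.40 in saline arrays, 7.59 to 7.85 after Albulin, 7.59 to 7.89 after Insulin-Apo and 7.55 to 7.74 after glargine, with no overlap with saline. The median difference of the 7 from saline was 0.47 after Albulin and 0.51 after Insulin-Apo, with 6 genes above 0 in each. After glargine it was -0.17, with only Cd14 (2.77) and Plac8 (0.93, not called) above 0. In that list F13a1 rose after Albulin (0.60) and Cd14 after Insulin-Apo (0.76). Cd14, the endotoxin co-receptor of monocytes and macrophages, was 6.84-fold higher after glargine than after saline (log2 difference 2.77, SE 0.15, limma adjusted p = 1.48e-06), the group in which Trem1 was highest. In the glargine arrays the other monocyte genes called, Ccr2 (-1.06), F13a1 (-0.77) and Ms4a4c (-0.77), were lower than after Albulin.

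The 11 Kupffer cell and macrophage genes averaged 10.07 to 10.29 in saline arrays, 10.30 to 10.48 after Albulin, 10.28 to 10.71 after Insulin-Apo and 9.71 to 10.36 after glargine, and Marco, a scavenger receptor, was the only one called against saline, higher after Insulin-Apo (0.93). The median difference of these 11 genes after glargine was -0.33 from Albulin and -0.30 from Insulin-Apo, with 1 gene above 0 in each. Against Insulin-Apo 2 of them were called lower, and against Albulin none. The part of monocytes and macrophages in the differences of the 9 genes was not tested. Of 3 red cell, 4 platelet, 8 eosinophil, mast cell and basophil, and 6 dendritic cell genes, none was called in any of the 6 comparisons. With lists this short, and at most 2.88% of all probe sets called in 1 direction, this says little about those cells. Of 7 T and NK cell genes, 1 was called lower after glargine than after Insulin-Apo. Of 9 sinusoidal endothelial genes, 1 was called lower after glargine in the comparison with each fusion protein.

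**Figure D4:**
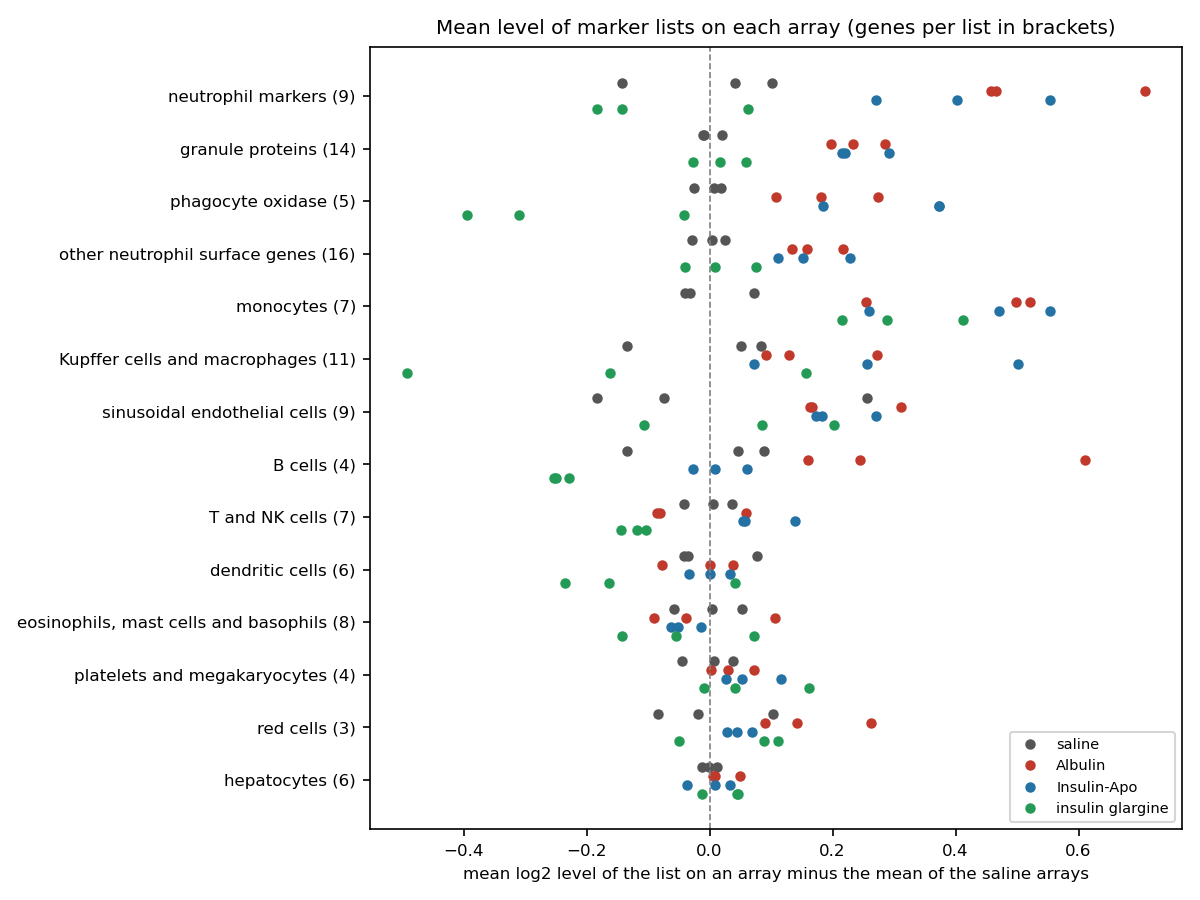
Mean log2 level of each marker list on each array minus the mean of the saline arrays (horizontal axis), 1 row per list with its number of genes in brackets; each point is an array, coloured by treatment. The mean level of the 9 neutrophil genes was 7.01 to 7.25 in saline arrays, 7.61 to 7.86 after Albulin, 7.42 to 7.70 after Insulin-Apo and 6.96 to 7.21 after glargine, so both fusion protein groups lay clear of the saline and glargine arrays.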

How the data were processed

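Mouse liver RNA was hybridized to 12 Affymetrix Mouse Gene 1.0 ST arrays. The authors corrected background and normalized with RMA, and deposited log2 expression values for 28213 probe sets. RMA sets all arrays to 1 distribution, so a shift of all genes together cannot be seen. Probe sets were named from the platform annotation: 21640 had 1 symbol, 1321 several and 5252 none. Groups came from the sample labels. Following the study's methods, probe sets were kept if 2 or more arrays of any 1 group read over 5 (25989 in a fit of 9 arrays without glargine, 26027 in a fit of all 12). limma 3.58.1 in R 4.3.3 was fitted to all of them. A gene was called where B exceeded 0, with 0.01 as the assumed share of changed probe sets, and p-values were adjusted by Benjamini-Hochberg. The 3 comparisons with glargine used the 12-array fit. The fit was tested on simulated data. The 9 genes and the 16 other gene lists were chosen with earlier results of these data known. All 9 genes are described, and genes outside them are named where they were called in their list, where they are a ligand of the 9, or for likeness to the mean of the 9 (top 5 by Pearson r). Some uncalled genes of the same lists are named beside them. Promoter sequences were RefSeq's, and 8 of the 9 genes had one, Mmp9 being the other. Figures were drawn with matplotlib 3.10.9. Alternatives changed 1 choice each: filter, normalization, variance model, threshold, arrays in the fit, probe sets kept, the replicate number as a block, and each array left out in turn.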

Additional observations from a re-analysis of the deposited data

How the results depend on the processing

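Of 1242 values for the 9 genes under the alternatives, 1115 kept their direction and side of the call, 83 lost a call, 35 gained one and 9 changed sign, all 9 of them uncalled. With each array left out in turn, the number of genes called ranged from 2 to 4 for Albulin against saline, from 0 to 3 for Insulin-Apo against saline, from 0 to 1 for Albulin against Insulin-Apo, from 1 to 2 for glargine against saline, from 3 to 7 for glargine against Albulin and from 2 to 5 for glargine against Insulin-Apo. For Insulin-Apo against saline, where limma called 0 genes, 3 were called at an adjusted p under 0.05 and 2 when a log2 difference of 0.58 was also asked, and 1 was called with arrays centred on their medians, with only probe sets of 1 symbol, or with all 12 arrays in the fit. For glargine against saline, 2 genes (Csf3r and Trem1) were called without the filter, with an intensity trend, at an adjusted p under 0.05, with only probe sets of 1 symbol or with the mean of a gene's probe sets, and 0 with the log2 limit of 0.58. For glargine against Insulin-Apo, 3 genes were called when only those groups entered the fit.

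With each array left out, the differences that changed sign ranged from -0.0674 to 0.0382 for Trem1 (Albulin against saline), from -0.0235 to 0.37 for S100a8 (Albulin against Insulin-Apo), and, for glargine against saline, from -0.31 to 0.24 for Mmp8, from -0.38 to 0.00395 for Cxcr2 and from -0.0950 to 0.0155 for S100a8. The median of the 9 genes for glargine against saline went to -0.28 without glargine replicate 2. The cause of these changes was not tested.

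Replicate numbers did not pair the arrays: same-number arrays of different groups correlated in their deviations from the group means at -0.27 to 0.15, and 3 of 12 arrays correlated best with their own number. With the replicate number as a block, 1 gene was called for Insulin-Apo against saline (S100a9) and 3 for glargine against Insulin-Apo. For Albulin against saline 3 were called under the block: S100a9 and Mmp8 kept their calls, S100a8 (limma adjusted p = 0.0262) and Cxcr2 (0.0306) lost theirs, and Retnlg (0.0247) gained one. The other comparisons gave 0 (Albulin against Insulin-Apo), 1 (glargine against saline) and 5 (glargine against Albulin). Groups of 3 arrays limit what small differences can be called, and dim probe sets such as Trem1, Mmp8 and Ly6g lie near the filter.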

Other observations

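Of 9 genes by which endothelium holds leukocytes, 2 rose after Albulin, 2 after Insulin-Apo and 1 after glargine. Over all probe sets, 1.37%, 1.34% and 2.24% were called higher. Icam1 and Jam2 were the genes called in both fusion protein groups. Jam2, a junctional adhesion molecule, was higher after Albulin by 0.79 in log2 (SE 0.15, limma adjusted p = 0.0136) and by 0.79 after Insulin-Apo (adjusted p = 0.0172). After glargine its difference was 0.73, with all 3 arrays above all saline arrays, and was not called (limma adjusted p = 0.0204). Vcam1, which binds the integrin VLA-4 on monocytes and lymphocytes, rose by 0.65 after glargine (SE 0.13, limma adjusted p = 0.0058) and differed by -0.20 and -0.04 after Albulin and Insulin-Apo, neither called. Glargine was higher than Albulin for Vcam1 by 0.85 (limma adjusted p = 0.0012). Of 9 myeloid transcription factor genes, Spi1, which encodes PU.1, rose after Albulin (0.43) and after Insulin-Apo (0.47). No other gene of that list was called against saline. The median difference of the 9 was 0.05 after Albulin and -0.07 after Insulin-Apo, with 6 and 3 genes above 0. Without overlap, Cebpa averaged 10.59 after Albulin against 11.15 in saline. In the other direction Runx1 averaged 7.93 after Albulin against 7.59 in saline, higher without overlap as 11.6% of all probe sets were. After Insulin-Apo, Cebpd averaged 8.02 against 8.52, Cebpe 7.87 against 8.05 and Gfi1 7.28 against 7.35, also without overlap.

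Of 4 B cell genes, Cd79b (-0.74) and Ms4a1 (-0.94) were called lower after glargine than after Albulin, as were 2.35% of all probe sets. None of the 4 was called against saline in any group. The mean level of the list was 6.73 to 6.76 in glargine arrays, 6.85 to 7.07 in saline arrays and 7.15 to 7.60 in Albulin arrays. In Insulin-Apo arrays it was 6.96 to 7.05, within the saline range.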
